A study of Mus musculus with 8 samples.

Results

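The simple epithelial keratins are the keratins of single-layered epithelia. Of the 24346 genes listed, the 6 with the symbols Krt7, Krt8, Krt18, Krt19, Krt20 and Krt23 were taken as members by name. Earlier results of these data were known when this choice was made. All 6 were above 0 in at least 1 library and were tested. Of the other 46 keratin genes listed, 19 were at 0 in every library and 27 were tested.

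The study asked how culture in 3D alters adipose-derived stem cells (ADSCs). The cells came from gonadal fat of adult male wild-type (WT) BALB/c mice, which was minced and digested with collagenase, and the labels call them mesenchymal stem cells in primary culture. The 2D-cultured group holds 1 library each of mice 2, 3, 4 and 5, and the 3D-cultured group, grown as organoids in Matrigel, 1 library each of mice 1, 4, 5 and 7, so mice 4 and 5 are in both groups. The study grew 3D cultures with several mixtures of Wnt3a- and R-Spondin1-conditioned media, and the sources used here do not say which mixture or passage was sequenced.

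Keratins are the intermediate filament proteins of epithelial cells. A type II keratin and a type I keratin pair to form the filament, so an epithelial cell makes at least one of each. Krt8 and Krt7 are type II, and Krt18, Krt19, Krt20 and Krt23 are type I. Krt8 and Krt18 are the pair that nearly all simple epithelia make, Krt7 and Krt19 are typical of ducts, Krt20 is known from intestinal epithelium and urothelium, and Krt23 is a less common type I keratin. Mesothelium, the cell layer that covers gonadal fat, also makes Krt8, Krt18, Krt19 and Krt7, while stromal cells build their filaments from vimentin.

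The members lie in 2 clusters in GRCm38 (mm10; positions from GENCODE M21). Krt7 (chr15:101411043-101430313, plus strand), Krt8 (chr15:101996698-102004482, minus strand) and Krt18 (chr15:102028180-102032027, plus strand) lie in the chromosome 15 cluster, which holds 24 of the listed keratins and otherwise type II genes. Krt18 is the type I gene of that cluster, 23.7 kb from Krt8 and on the other strand. Krt19 (chr11:100140810-100148665), Krt20 (chr11:99428403-99438150) and Krt23 (chr11:99477974-99493137), all on the minus strand, lie in the chromosome 11 cluster, which holds 27 of the listed keratins. An opposite-strand lincRNA, Gm36026, overlaps Krt8 over 271 nt and an antisense gene, Gm671, overlaps Krt7 over 1269 nt. Neither was listed, and whether the counting used strand is not given in the sources used here, so reads from these overlaps cannot be assigned to 1 of the genes.

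The promoters of Krt8 and Krt18, which form a pair, and of Krt20, which moved the other way, are shown as the bases before the RefSeq start (GRCm38.p6), 5′ to 3′ on the strand of the gene. Bases that GENCODE places in an exon are left out, so Krt8 is shown at chr15:102004483-102004592 (minus strand), Krt18 at chr15:102027966-102028179 (plus strand) and Krt20 at chr11:99438154-99438403 (minus strand). Capitals mark matches on either strand to CACCTG (the E-box that the ZEB and SNAI repressors bind), ACCNGTT (the core of the grainyhead factors), CACCC (Krueppel-like factors) and TATAAA (the TATA box).
Krt8: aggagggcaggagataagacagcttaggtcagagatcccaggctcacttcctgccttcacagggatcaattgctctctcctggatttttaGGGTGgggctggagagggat
Krt18: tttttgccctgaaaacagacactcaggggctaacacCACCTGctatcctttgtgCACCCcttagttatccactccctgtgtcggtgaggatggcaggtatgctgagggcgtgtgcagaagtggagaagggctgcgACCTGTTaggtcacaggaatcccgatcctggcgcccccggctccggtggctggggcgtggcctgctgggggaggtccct
Krt20: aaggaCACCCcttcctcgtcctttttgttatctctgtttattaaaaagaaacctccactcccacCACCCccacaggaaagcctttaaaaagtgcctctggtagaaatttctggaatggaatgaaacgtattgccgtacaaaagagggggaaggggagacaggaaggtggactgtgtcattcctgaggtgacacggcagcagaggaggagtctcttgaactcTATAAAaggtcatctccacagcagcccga
RefSeq gave promoters for 5 members (Krt7, Krt8, Krt18, Krt20 and Krt23), and the motifs were searched over 250 bases before each start. CACCTG was found in 4 of the 5 (Krt7, Krt8, Krt18 and Krt23), and 17.2% of all 32851 promoters hold it. The matches of Krt8, 111 bases before the start, and of Krt7, 44 bases before it, lie inside exons of GENCODE transcripts. CACCC was found in 4 of the 5, against 52.0% of all promoters, and its Krt8 match 137 bases before the start lies in such an exon. Krt18 alone of the 5 held ACCNGTT, with matches 115 and 13 bases before its start (6.97% of all promoters). The match at 13 bases also lies in a GENCODE exon. Krt20 alone held TATAAA, 29 bases before its start (12.4%). None of the 5 held CCAAT (33.8% of all promoters), the AP-1 motif TGANTCA (6.75%) or the ETS motif CCGGAAG (6.91%). These are matches of letters and not known sites.

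Values are FPKM (fragments per kilobase of transcript, scaled to the mapped depth), which are per length, quantile-normalised over the 18862 genes above 0 in any library unless said to be as deposited. Depth, estimated from the steps between low values, was 16.4 to 17.4 M fragments in 2D and 14.5 to 15.6 M in 3D. Differences are on the log2(FPKM + 1) scale, 3D minus 2D, from limma, with 4 libraries a group, and a gene is called when limma's adjusted p, taken over the whole table, is below 0.05. When the mouse was added as a block, which leaves 1 residual degree of freedom, 0 of the 18862 genes were called, while 5216 (27.7%) had an unadjusted p below 0.05.

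Some libraries stood apart before any keratin was considered. Of 8 mesothelial genes tested, with keratins left out, all 8 were at 1 FPKM or more in the 2D libraries of mice 3 and 4. Their summed level was 857 in 2D mouse 3 and 2157 in 2D mouse 4, against 2.33 and 0.569 in 2D mice 2 and 5 and between 2.57 and 34.0 in 3D. Msln, the surface protein mesothelin, was at 253 and 728 in these 2 libraries and at 0.388 and 0.286 in the other 2D libraries. The 3D library of mouse 1 differed in another way. Trp63, the p63 factor of basal epithelial cells, was at 131 there, and the other 3D libraries ran from 0.266 to 7.01. Stromal genes, taken as a sum, were high in 2D and near 0 in 3D. The summed level of 12 stromal genes was between 4415 and 7299 in 2D and between 0.332 and 3.47 in 3D, and 11 of the 12 were called lower. Among the stem cell surface proteins that the study measured by flow cytometry, Sca-1 was similar in both cultures. CD44, CD90.2 and CD105 were lower in 3D. Of 14 epithelial genes tested, again without keratins, 14 were called higher in 3D, and 1 further gene of the list was at 0 in every library. Their summed level was between 5.89 and 10.3 in 2D and between 2284 and 2787 in 3D. The marker lists were chosen with earlier results of these data known. Over all genes tested, 21.2% were called higher and 20.3% lower. The part of any of these cell types in the keratin values was not tested, and in bulk RNA fewer cells of a type and less RNA per cell cannot be told apart.

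**Figure D1:**
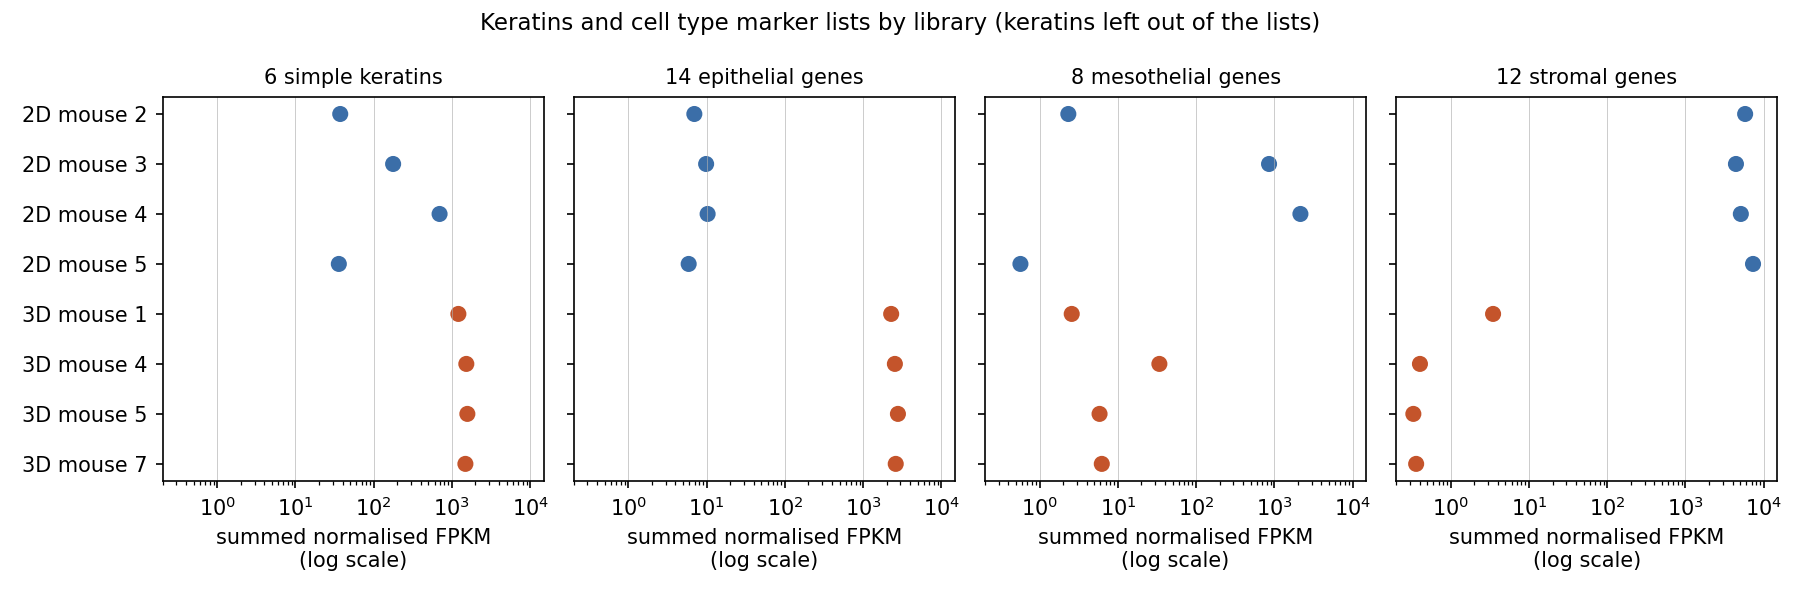
Summed normalised FPKM on a log scale for each of the 8 libraries, for the member keratins and for marker lists without keratins; each point is 1 library, blue for 2D and red for 3D. The 2D libraries of mice 3 and 4 have mesothelial sums of 857 and 2157, and the other libraries are at 34.0 or below.

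Keratin RNA was far higher in 3D cultures, and it was uneven among the 2D cultures. The summed level of the 6 members was 37.4, 177, 696 and 35.9 in 2D mice 2, 3, 4 and 5, and 1209, 1528, 1576 and 1487 in 3D mice 1, 4, 5 and 7. Krt8, Krt7 and Krt19 were called higher in 3D, Krt20 was called lower, and Krt18 and Krt23 were not called. Of all genes tested, 21.2% were called higher, 20.3% lower and 41.5% in either direction. Krt7, Krt8 and Krt18 were the members whose 2D and 3D libraries did not overlap, all higher in 3D. Of all genes 21.6% had no overlap with 3D higher and 20.9% with 3D lower, 42.5% in all. The median difference was 3.07 over the 6 members and 0.0012 over all genes tested. With the mouse as a block none of the 6 was called, the lowest limma adjusted p being 0.168, for Krt20, and 0 of all 18862 genes were called. An unadjusted p below 0.05 was found for 1 of the 6 and for 27.7% of all genes tested. Leaving out the 2D libraries of mice 3 and 4 was chosen after seeing the data and leaves 2 libraries in 2D. It gave 4 members called higher and 1 lower, with differences of 5.25 for Krt7 (limma adjusted p 0.000249), 2.34 for Krt19 (0.00369) and -2.06 for Krt20 (0.0104). These libraries held the highest Krt8, Krt18 and Krt19 and the lowest Krt20 of 2D. Krt7 was at 67.3 in 2D mouse 4 and at most at 3.48 in the other 2D libraries. Larger differences of all these genes, Krt7 included, were therefore fixed in advance.

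**Figure D2:**
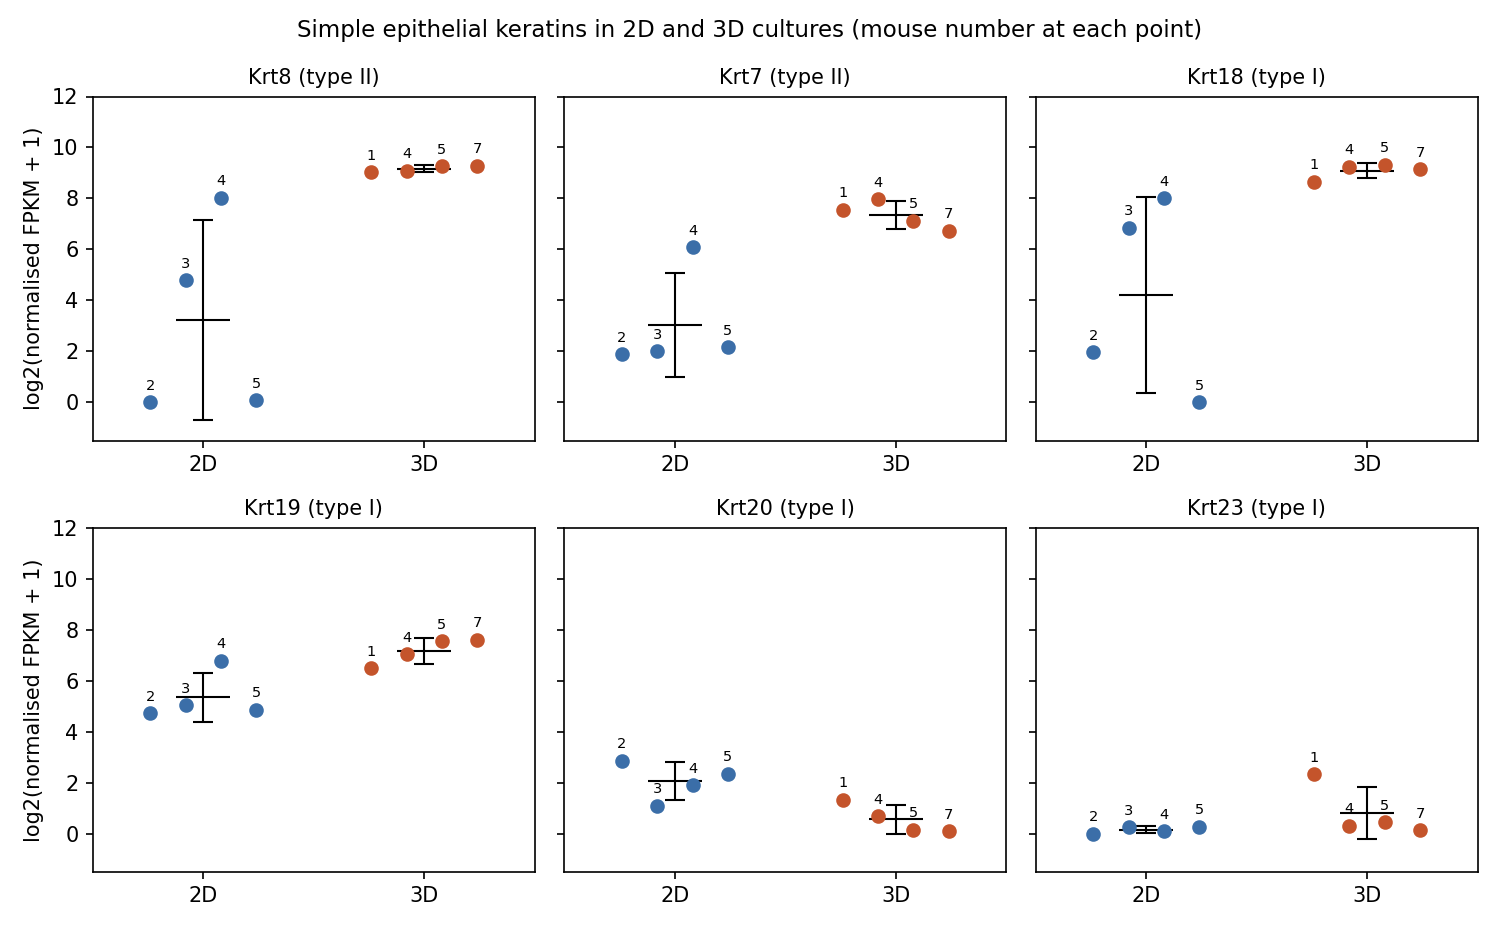
Log2(normalised FPKM + 1) of each member in 2D and 3D cultures, with the mouse number at each point and the mean and SD of each group (n = 4). Krt8, Krt7 and Krt18 have no overlap between the cultures, Krt19 and Krt20 overlap, and Krt23 stands out in the 3D library of mouse 1.

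Krt8 is the main type II keratin of simple epithelia. It was listed at 0 in 2D mouse 2 and was at 26.8, 261 and 0.0603 in 2D mice 3, 4 and 5. In 3D it was at 524, 540, 616 and 623 in mice 1, 4, 5 and 7. The 3D libraries lay close together and above every 2D library, while the 2D libraries were spread widely, with mouse 4 the highest. The value of 2D mouse 5 rests on about 1.17 fragments, and at 0 in 2D mouse 2 the depth allows a deposited value of up to 0.0917 FPKM (3 fragments). The difference was 5.94 ± 1.73 (SE), with a limma adjusted p of 0.0268, and it was 5.12 with a limma adjusted p of 0.385 with the mouse as a block. Within mouse 4, Krt8 was 2.07 times as high in 3D as in 2D, and within mouse 5 the log2 difference was 9.19. Leaving out 2D mouse 4 gave 7.52 and a limma adjusted p of 0.00271, and leaving out both 2D libraries with mesothelial genes gave 9.09 and 2.64e-06. Both also held the most Krt8 RNA of the 2D group, so a larger difference without them was fixed in advance. Leaving out any single library other than 2D mouse 3 or 2D mouse 4 ended the call, with a limma adjusted p of between 0.0513 and 0.0621.

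Krt18, the type I partner of Krt8, was at 2.89, 114, 256 and 0 in 2D mice 2, 3, 4 and 5 and at 403, 606, 635 and 564 in 3D mice 1, 4, 5 and 7. Again the 3D libraries were all above the 2D ones, and 2D mice 3 and 4 held the 2D RNA. The listing of 0 in 2D mouse 5 allows a deposited value of up to 0.127 FPKM. The difference was 4.89 ± 1.70 (SE), and it missed the threshold with a limma adjusted p of 0.0519 (0.371 with the mouse as a block). It passed without 2D mouse 3 (5.76, limma adjusted p 0.0391), without 2D mouse 4 (6.13, 0.0162) and without both (8.06, 0.000244). Both held the most Krt18 RNA of the 2D group, so a larger difference without them was fixed in advance. Within mouse 4 the level was 2.37 times as high in 3D, and within mouse 5 the log2 difference was 9.31.

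Krt7, the type II keratin of ducts, was at 2.73, 3.02, 67.3 and 3.48 in 2D mice 2, 3, 4 and 5, and at 188, 251, 138 and 106 in 3D mice 1, 4, 5 and 7. In 2D it was low but detected in every library, on at least 146 fragments, and only mouse 4 stood above the rest. Unlike Krt8 and Krt18, it was not raised in 2D mouse 3, where mesothelial genes were also high. The difference was 4.31 ± 0.93 (SE), with a limma adjusted p of 0.00768. The call held with each of the 8 libraries left out in turn (limma adjusted p between 3.4e-05 and 0.0232) and was lost with the mouse as a block (3.42, limma adjusted p 0.226). Within mice 4 and 5 the level was 3.73 and 39.6 times as high in 3D.

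Krt19, a small type I keratin of ducts that lacks most of the tail domain, was the member with the most RNA in the 2D libraries of mice 2 and 5. It was at 25.5, 31.6, 109 and 28.0 in 2D mice 2, 3, 4 and 5, and at 88.5, 131, 186 and 194 in 3D mice 1, 4, 5 and 7. The groups overlapped, since 3D mouse 1 was below 2D mouse 4. The difference was 1.82 ± 0.49 (SE), with a limma adjusted p of 0.0190, and it was 1.47 with a limma adjusted p of 0.397 with the mouse as a block. On the deposited values it was 1.36 and no longer called (limma adjusted p 0.0567), and 4 of the 8 omissions of a library also ended the call, with limma adjusted p values of up to 0.0518. Within mouse 4 the 3D level was 1.20 times the 2D level, and within mouse 5 it was 6.62 times.

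Krt20, the type I keratin of intestinal epithelium and urothelium, went the other way. It was at 6.26, 1.13, 2.74 and 4.08 in 2D mice 2, 3, 4 and 5, and at 1.51, 0.606, 0.110 and 0.0752 in 3D mice 1, 4, 5 and 7. The groups overlapped, because 3D mouse 1 was above 2D mouse 3, and the values of 3D mice 5 and 7 rest on about 3.21 and 2.14 fragments. The difference was -1.48 ± 0.43 (SE), with a limma adjusted p of 0.0255, and -1.71 with 0.168 with the mouse as a block. With single libraries left out, 5 of the 8 fits lost the call, with limma adjusted p values of up to 0.0689. Within mice 4 and 5 the 3D level was 0.221 and 0.0270 times the 2D level. The 3 urothelial genes tested, the uroplakins Upk1a, Upk2 and Upk3a, gave 0 calls in limma (1 of the 3 at an unadjusted p below 0.05). Over all genes tested, 21.2% were called higher and 20.3% lower. The summed level of these 3 genes was at most 0.679 in any library. Upk1b and Upk3b, uroplakins counted in the mesothelial list and named after their values were seen, were high in 2 libraries. They were at 305 and 192 in 2D mouse 3, at 643 and 481 in 2D mouse 4, and at most at 1.45 elsewhere.

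Krt23 was near the limit of detection in 2D. It was listed at 0 in 2D mouse 2 and was at 0.193, 0.0669 and 0.204 in 2D mice 3, 4 and 5, each on under 5 fragments. In 3D it was at 4.02 in mouse 1 and at 0.244, 0.358 and 0.0964 in mice 4, 5 and 7. Mouse 1 was high. Mice 4 and 5 were a little above the highest 2D value, on about 6.83 and 9.04 fragments, and mouse 7 lay within the 2D range. The difference was 0.65 ± 0.46 (SE), with a limma adjusted p of 0.296, and it was 0.13 without 3D mouse 1.

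**Figure D3:**
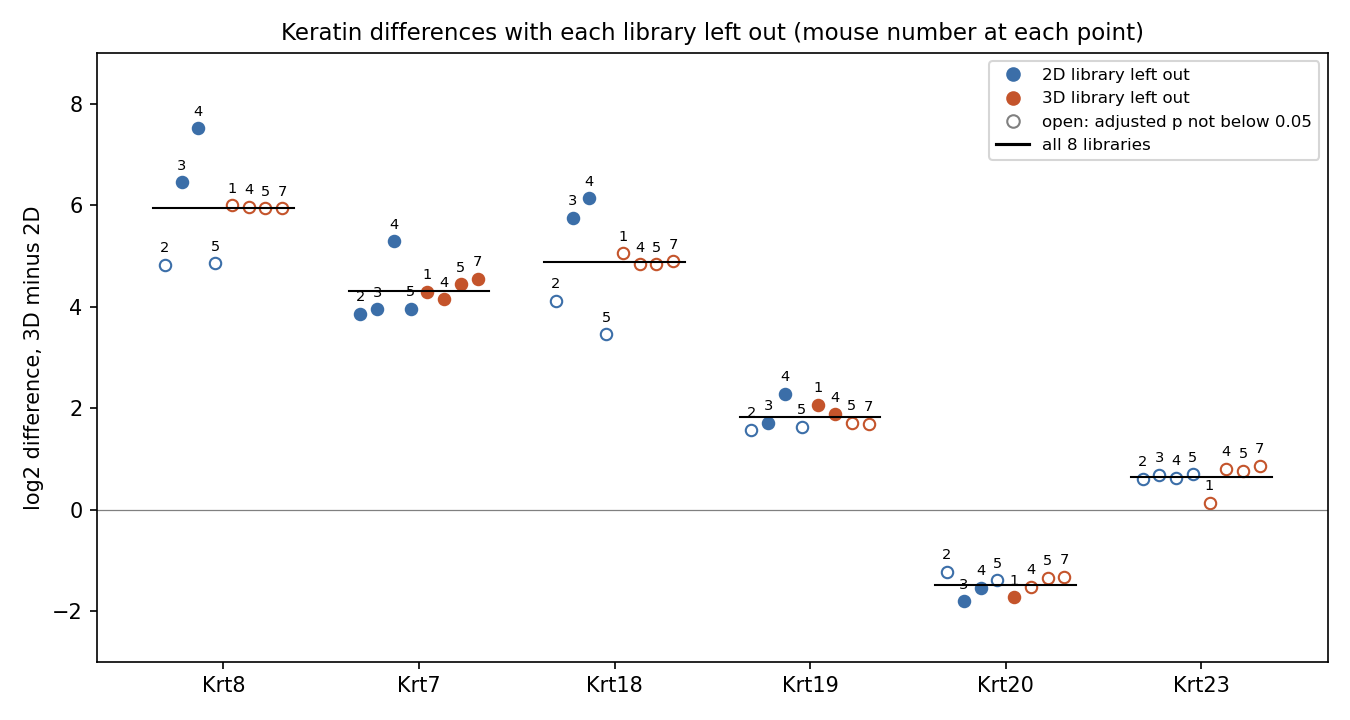
Log2 difference (3D minus 2D) of each member from limma with all libraries and with each library left out, marked by the mouse number; lines are fits to all 8 libraries, and filled points were called. Krt7 stayed called without each library, and Krt8 only without 2D mouse 3 or 2D mouse 4.

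The order of the members by mean level in 3D was Krt8 (576 ± 51.1, SD, n = 4), Krt18 (552 ± 104), Krt7 (171 ± 63.3), Krt19 (150 ± 49.4), Krt23 (1.18 ± 1.90) and Krt20 (0.575 ± 0.668). Neighbours in this order overlapped over the 3D libraries, except that the lowest Krt18 was above the highest Krt7 and the lowest Krt19 above the highest Krt23. In 2D the means were 93.3 ± 121 for Krt18, 71.9 ± 126 for Krt8, 48.6 ± 40.4 for Krt19, 19.1 ± 32.1 for Krt7, 3.55 ± 2.17 for Krt20 and 0.116 ± 0.0992 for Krt23, with SDs larger than the means of Krt18, Krt8 and Krt7. Within 2D the rank order differed by mouse. Krt19 led in mice 2 and 5, Krt18 in mouse 3, and Krt8 and Krt18 led at nearly equal levels in mouse 4.

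Because a filament needs a type II and a type I partner, the deposited FPKM of Krt7 and Krt8 was set against that of Krt18, Krt19, Krt20 and Krt23 in each library. The ratio of type II to type I RNA was 0.0598, 0.187, 0.894 and 0.0864 in 2D mice 2, 3, 4 and 5, and 1.40, 1.03, 0.926 and 0.968 in 3D mice 1, 4, 5 and 7. The members were thus near an even balance in 2D mouse 4 and in 3D mice 4, 5 and 7, with more type II in 3D mouse 1 and mostly type I in the other 2D libraries. With all 51 keratins that GENCODE places in the clusters, the ratio was 0.203, 0.194, 0.898 and 0.416 in the 2D libraries and 1.73, 1.03, 0.926 and 0.968 in the 3D libraries, in the same order of mice. The largest changes went with type II genes outside the members, Krt80 in 2D mice 2 and 5 (5.14 and 11.7 deposited FPKM) and Krt5 in 3D mouse 1 (271). Krt8 over Krt18 was 0.215 and 1.03 in 2D mice 3 and 4 and between 0.835 and 1.29 in 3D. Krt19 made up 63.4%, 16.7%, 15.8% and 61.2% of all keratin FPKM in 2D mice 2, 3, 4 and 5, and 5.17%, 7.39%, 11.8% and 13.7% in 3D mice 1, 4, 5 and 7. In 2D mice 2 and 5 most keratin RNA was therefore Krt19, whereas in 3D most was Krt8 and Krt18. The 6 members together made up 86.0%, 97.7%, 99.3% and 74.4% of keratin FPKM in the 2D libraries and 72.7%, 98.9%, 99.4% and 99.6% in the 3D libraries, in the same order of mice.

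**Figure D4:**
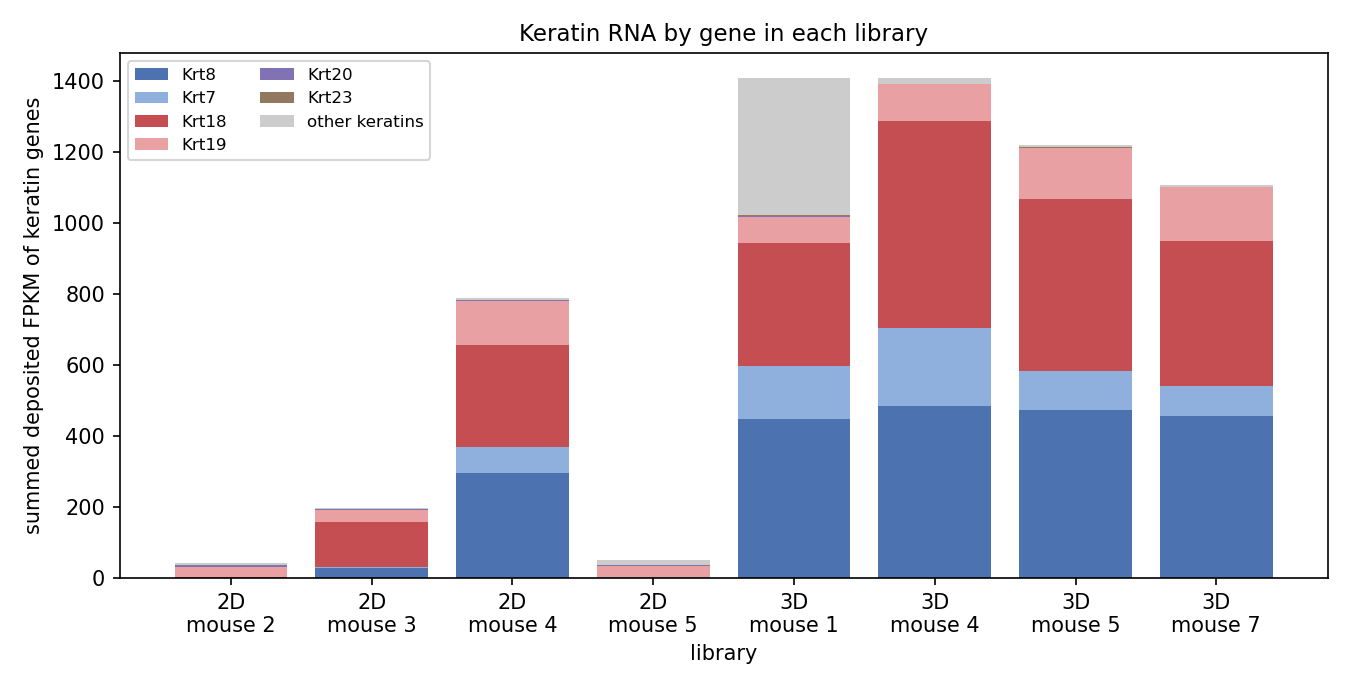
Deposited FPKM of each member keratin and, in grey, of all other keratins together, stacked for each of the 8 libraries. The sums are between 44.0 and 790 in 2D and between 1108 and 1409 in 3D, and the grey part is tall only in the 3D library of mouse 1, where Krt5 alone is 19.2% of the sum.

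Of the 27 other keratins tested, 2 were called higher in 3D and 0 lower in limma (0 lower and 4 higher at an unadjusted p below 0.05). Among all genes tested, 21.2% were called higher and 20.3% lower. The calls were Krt4, a keratin of moist stratified epithelium, and Krt222, which was at most at 0.414. Krt4 was listed at 0 in every 2D library and was at 0.452, 5.70, 1.60 and 1.28 in 3D mice 1, 4, 5 and 7 (limma adjusted p 0.0239). Other keratins at a mean of 1 FPKM or more in a culture were Krt80, Krt5, Krt14, Krt15, Krt17, Krt6a and Krt13. Krt80, which lies next to Krt7 at a distance of 40.9 kb, was at 5.73 ± 4.30 (SD, n = 4) in 2D and 1.83 ± 2.06 in 3D and was not called (limma adjusted p 0.125).

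Krt5, Krt14, Krt15, Krt6a, Krt13 and Krt17, keratins of basal or stratified epithelium, each had their highest level in the 3D library of mouse 1. Krt5, the basal type II keratin, was at 326 there and at 0.189, 0.0668 and 0.435 in 3D mice 4, 5 and 7. Its partner Krt14 was at 64.6 there and at 3.80, 0.251 and 0.753 in those mice. Krt15, which lies 4.88 kb from Krt19, was at 15.2, Krt6a at 15.5, Krt13 at 9.20 and Krt17 at 5.55 in 3D mouse 1, and none of them was above 1.65 in another 3D library. None of these 6 genes was called (the lowest limma adjusted p was 0.0770, for Krt17). The same library held the lowest Krt8, Krt18 and Krt19 and the highest Krt20 and Krt23 of the 3D group. In it 10 of the other keratins were at 1 deposited FPKM or more, against 3, 2 and 1 in 3D mice 4, 5 and 7. Without this library and 2D mouse 4, a choice made after seeing the data, 4 members were called higher and 1 lower. Because 2D mouse 4 held the highest Krt8, Krt18, Krt7 and Krt19 of 2D, larger differences of Krt8, Krt18 and Krt19 were fixed in advance. For Krt7 the omission of 2D mouse 4 had the same effect.

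Keratin filaments are tied to desmosomes and hemidesmosomes by plakins and plaque proteins. Of 19 such linkers and partners tested, 13 were called higher in 3D and 3 lower, beside 21.2% and 20.3% of all genes tested. Itgb4, the integrin that anchors keratin at hemidesmosomes, was at 0.664 ± 0.646 (SD, n = 4) in 2D and 119 ± 54.3 in 3D, a difference of 6.15 (limma adjusted p 1.54e-05). Pkp3, a desmosomal plakophilin, was at 0.0221 ± 0.0319 in 2D and 28.2 ± 4.55 in 3D, a difference of 4.82 (5.67e-07). Among the falls, Dst, which encodes the plakin dystonin, was at 50.4 ± 5.16 in 2D and 18.5 ± 5.38 in 3D (limma adjusted p 0.00089), and Plec, the plakin plectin, which also binds vimentin, was at 59.4 ± 12.5 and 34.1 ± 9.33 (0.0209). In 2D mouse 4, where Krt8 was at 261, the linkers Pkp3, Dsg2 and Dsp, chosen after their values were seen, were at 0.0676, 0.0163 and 0.206. Of the 19 linkers, 12 were at 1 FPKM or more in that library, among them Plec at 45.5, Jup at 22.9 and Pkp2 at 12.3. Ppl, the plakin periplakin, was at 13.4 there and at 0.0885, 0.983 and 0.149 in 2D mice 2, 3 and 5.

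**Figure D5:**
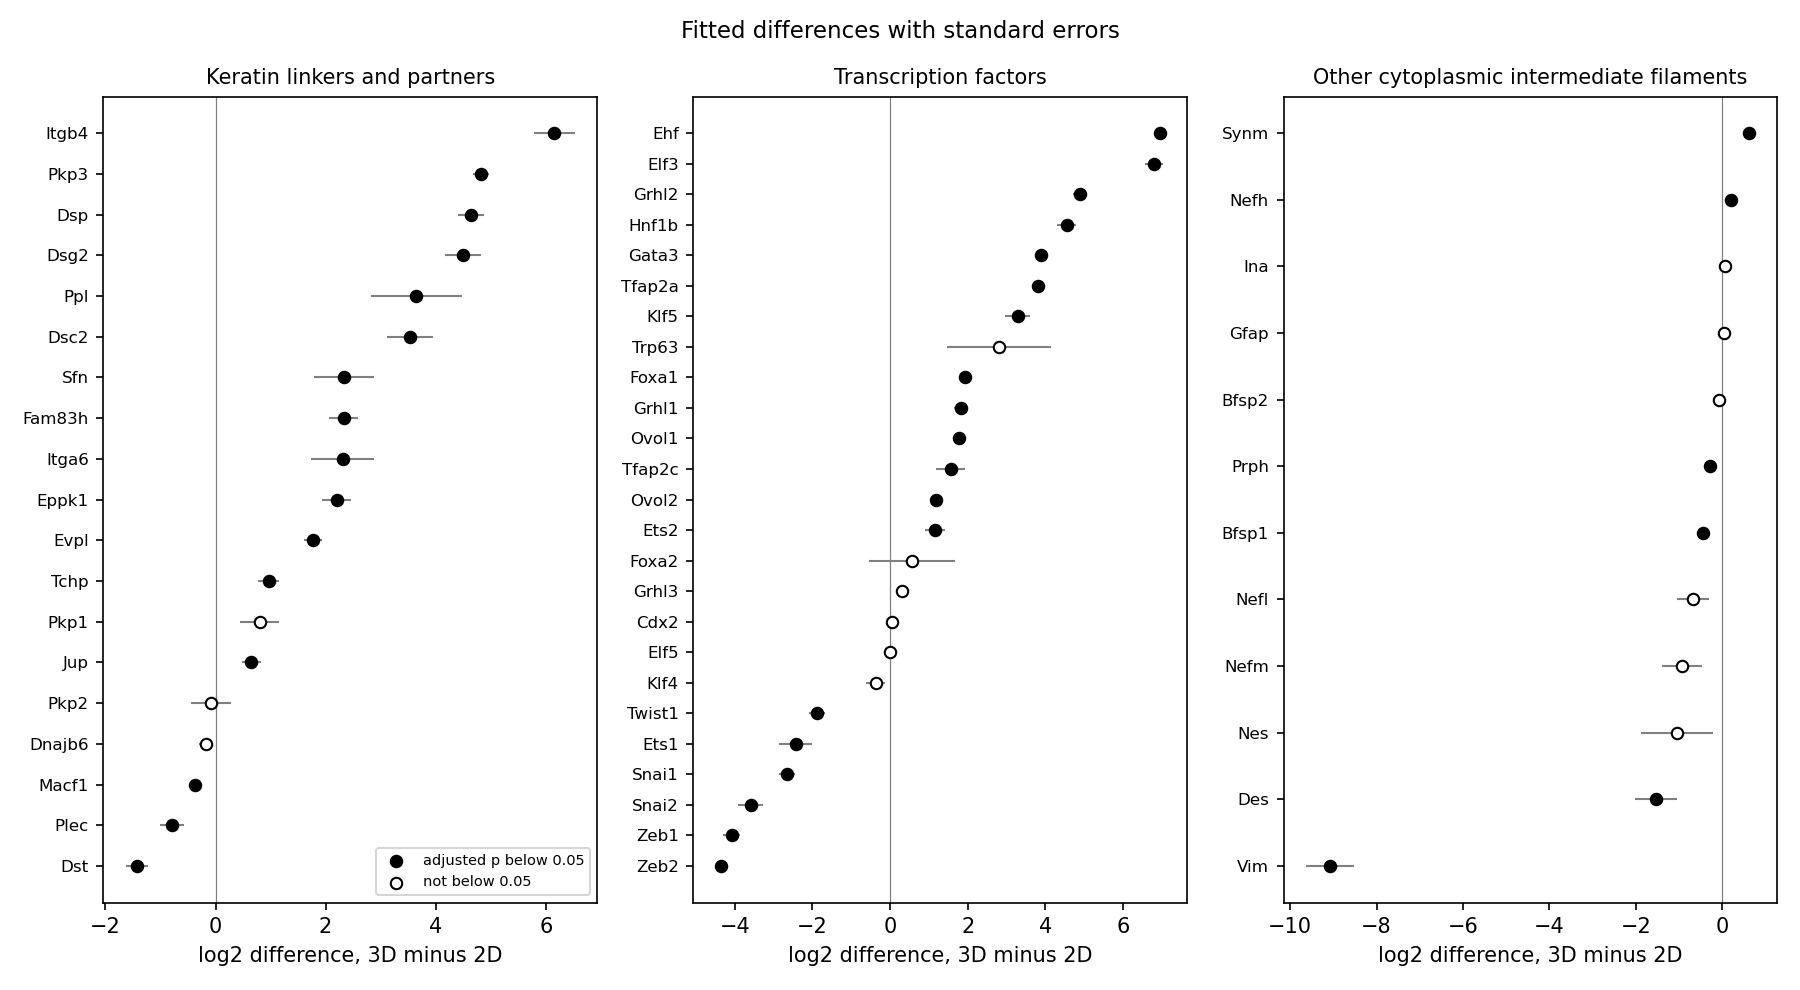
Fitted log2 differences (3D minus 2D) with standard errors for keratin linkers, transcription factors and other cytoplasmic intermediate filament genes; filled points were called in limma and open ones were not. Of the linkers 13 of 19 are called higher, and vimentin has the lowest value of the filament genes, at -9.08.

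The other cytoplasmic intermediate filament genes gave 2 calls higher and 4 lower of 12, beside 21.2% higher and 20.3% lower over all genes tested. Vim, the filament of stromal cells, fell from 2345 ± 743 (SD, n = 4) in 2D to 4.18 ± 3.68 in 3D, a difference of -9.08 ± 0.55 (SE; limma adjusted p 1.48e-05). Des, the filament of muscle cells, was at 2.60 ± 2.81 in 2D and listed at 0 in every 3D library (limma adjusted p 0.0378, lost in 6 of 8 omissions of a library). Synm, a filament partner of desmin and vimentin, was at 0.401 ± 0.0643 and 1.18 ± 0.451 (0.00878), and Nefh, a neurofilament, stayed under 0.25 in every library. Summed keratin over vimentin, both as deposited, was 0.0145, 0.112, 0.414 and 0.0153 in 2D mice 2, 3, 4 and 5, and 151, 659, 208 and 1637 in 3D mice 1, 4, 5 and 7. Vimentin exceeded all keratins in every 2D library, mouse 4 included, and keratins exceeded vimentin in every 3D library.

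Of 25 transcription factors known to act on simple epithelial genes, in either direction, 13 were called higher in 3D and 6 lower. The shares over all genes tested were 21.2% higher and 20.3% lower. Ehf and Elf3, ETS factors of epithelia, had 0 FPKM throughout 2D and were at 124 ± 22.2 (SD, n = 4) and 114 ± 35.1 in 3D (limma adjusted p 4.75e-08 and 6.8e-07). Zeb2 and Zeb1, repressors of epithelial genes, were at 19.9 ± 1.61 and 16.9 ± 5.18 in 2D and at 0.0160 ± 0.0147 and 0.0297 ± 0.0359 in 3D (4.1e-07 and 8.15e-06). In 2D mice 2, 3, 4 and 5, Zeb1 was at 19.3, 11.9, 13.4 and 23.0 and Zeb2 at 17.6, 21.2, 20.5 and 20.3. Elf3 and Ehf were at 0 in 2D mouse 4, where Krt8 and Krt18 were at 261 and 256. The part of these factors in the keratin values was not tested. Foxa2, a forkhead factor of endoderm, was at 22.9 and 12.5 in 2D mice 3 and 4 and at 0 in 2D mice 2 and 5, the libraries where Krt8 and Krt18 were lowest, and it was not called (limma adjusted p 0.704). Foxa2, Ivl and the linkers named for 2D mouse 4 were chosen after their values were seen.

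The remaining marker lists were counted in the same way, beside 21.2% of all genes tested called higher in 3D and 20.3% lower. A count near these shares is no result about the list. Of 10 epididymal genes tested 3 were called higher in 3D, among them Pax8 and Pax2, factors of the genital ducts, at 36.5 ± 5.33 (SD, n = 4) and 8.49 ± 2.47 in 3D, while 6 further genes of the list were at 0 in every library. Of 10 basal and squamous genes Itga6 and Itgb4, the hemidesmosome integrin, were called higher. Ivl, which encodes involucrin of squamous cells, was not called and was at 19.5 and 120 in 2D mice 3 and 4, against at most 5.10 in any other library. The endothelial list gave 0 of 5 in limma (2 lower at an unadjusted p below 0.05), the macrophage list 1 of 5 (Cd68, higher) and the adipocyte list 2 of 4 (Lpl and Pparg, both lower). Among 10 cell cycle genes 8 were called lower, among them Birc5 and Ccnb1. The mesothelial list gave 0 of 8 in limma, also at an unadjusted p below 0.05. With the mouse as a block each of these lists gave 0 calls, as did the 18862 genes tested.

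The genes with the pattern most like each member over the 8 libraries were found by Pearson's r of log2(normalised FPKM + 1) among 12582 genes that averaged 1 FPKM or more. These r describe 8 libraries that fall into 2 cultures and carry no test. For Krt8 they were Cystm1 (0.989), Exoc6 (0.988) and Net1 (0.987), and for Krt18 Stxbp2 (0.998), Ssh3 (0.988) and Rab11a (0.987). For Krt7 they were Tspan8 (0.985), Plekha7 (0.976) and Tmx4 (0.972), for Krt19 Sh2d4a (0.988) and Ik (0.979), and for Krt20 Taf9 (0.975), Rasa4 (0.972) and Dtymk (0.962). Stxbp2, which encodes a syntaxin-binding protein of secretion, was at 5.15, 27.2, 31.6 and 2.26 in 2D mice 2, 3, 4 and 5 and between 50.1 and 59.1 in 3D, so it was raised in the same 2D libraries as Krt18. Tspan8, a tetraspanin, was at 0, 0.481, 51.9 and 0 in the same 2D libraries and between 128 and 202 in 3D, so like Krt7 it was raised in 2D mouse 4 and not in 2D mouse 3.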

How the data were processed

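Total RNA of the 8 cultures was extracted with TRIzol, depleted of rRNA and made into directional paired-end libraries. The authors trimmed the reads, mapped them with TopHat (mm10, per the labels) and estimated FPKM with Cufflinks; the deposited values are these FPKM, without read counts, and the quantile normalization that the study names as the next step is not in them. Here 5484 genes at 0 in every library were left out, and 18862 were quantile-normalised. Log2(FPKM + 1) was fitted with limma 3.58.1 (R 4.3.3; empirical Bayes with intensity trend, no covariate, two-sided, Benjamini-Hochberg). The model was tested on simulated data.

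Mice 4 and 5 pair 2 libraries each, by the labels. Deviations from the culture means correlated at -0.05 (mouse 4) and -0.11 (mouse 5) over 12583 genes. Each culture is 1 library per mouse, and whether cultures were grown in parallel is not given in the sources used here. Depth was estimated from 875 genes of at least 3000 nt, and fragment numbers and limits cover counting error only. Of the symbols, 95.7% matched GENCODE M21.

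The members and lists were chosen with earlier results of these data known. Named genes are the 6 members, other keratins at a mean of at least 1 FPKM in a culture, up to 2 called rises and 2 called falls per list, and the 3 genes most like each member that averages 1 FPKM or more; a gene that this rule names is not reported here. Alternatives were the deposited values, a pseudocount of 0.1, a mean of at least 1 FPKM, no trend, the mouse as a block, mice 4 and 5 only, and each library left out. Protein, qPCR and imaging data of the study were not analysed here.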

Additional observations from a re-analysis of the deposited data

Results flagged for a closer look

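In groups of 4 libraries, a value was listed when, on the log2(normalised FPKM + 1) scale, its gap to the nearest other library as a share of the group's range exceeded Dixon's critical value, which chance gives for about 1 in 20 groups. That rate assumes normal values, and many groups were screened, so chance could give some of those listed. In 2D, mouse 4 stood apart for Krt7 (67.3, the others between 2.73 and 3.48 normalised FPKM) and for Krt19 (109.1, the others between 25.5 and 31.6). In 3D, mouse 1 stood apart for Krt23 (4.02, the others between 0.0964 and 0.358), Krt5 (326, the others up to 0.435), Krt15 (15.2, up to 0.520), Krt6a (15.5, up to 0.537) and Krt13 (9.20, up to 0.0988). Of the other genes named, Sparc, a matrix protein of stromal cells, was at 1.13 in 3D mouse 1 and at up to 0.135 in the other 3D libraries.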

How the results depend on the processing

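The difference of no member changed sign in these alternatives. With the mouse as a replicate block, which leaves 1 residual degree of freedom, the differences of Krt8, Krt7, Krt19 and Krt20 were 5.12, 3.42, 1.47 and -1.71 and no longer called. The counts of calls were 0 higher and 0 lower for the members and for every list. That had to follow, as 0 of the 18862 genes tested were called in that fit. For the other alternatives the shares over all genes tested are not given here, so their counts are no result about the lists. With mice 4 and 5 only, Krt8 (5.14), Krt7 (3.42) and Krt19 (1.47) lost the call and 0 members were called higher. Krt20 stayed called lower there (-1.71, limma adjusted p 0.0408). In the same fit 1 other keratin was called lower, 1 linker lower and 1 other filament gene higher. As deposited, Krt19 (1.36) lost the call. With a mean of at least 1 FPKM, Krt18 gained it (4.89), and the counts were 1 other keratin higher and 0 higher and 2 lower filament genes, with fewer genes tested. Krt18 also gained it without the 2D library of mouse 4 and the 3D library of mouse 1 (6.31) and without the 2D libraries of mice 3 and 4 (8.06). Both omissions were chosen after seeing the data, and a larger Krt18 difference was fixed in advance in each. Over the 8 fits without 1 library, the difference ranged from 4.83 to 7.52 for Krt8, from 3.46 to 6.13 for Krt18, from 1.58 to 2.28 for Krt19 and from -1.81 to -1.23 for Krt20. In the same fits 1 to 4 members were called higher and 0 to 1 lower, 1 to 3 other keratins higher and 0 to 1 lower, 1 to 3 linkers lower, and 2 to 4 other filament genes lower. The causes were not tested. Depth limits Krt23 in 2D, Krt20 in 3D and the listings at 0.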
